A study of Mus musculus with 2 samples.

Results

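The mouse zinc finger genes named Zfp with a number in the 700s, 800s or 900s were followed on the arrays of wildtype and Shox2-/- right atria. Members were taken by symbol alone, as the letters Zfp, the number and nothing else, and 103 of 21225 probe sets on the arrays carried such a symbol. In all, 20239 probe sets had a gene symbol. The RefSeq annotation of GRCm38.p6 held 128 symbols of this form, 25 of which were not among the probe sets used here. The group was chosen by someone who already knew the Shox2-/- minus wildtype values of these arrays, so the differences given are a description, without a test.

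Each array was hybridized with RNA pooled from 6 right atria of E11.5 embryos from 2 pregnancies. The mice had been crossed into the CD-1 outbred strain. Allele or copy number differences between the embryos of the pools cannot be told apart from genotype. Tissue comprised the sinus venosus myocardium and the venous valves, where Shox2 is expressed. The control array held wildtype RNA and the other held RNA of embryos that lack Shox2 in every cell, so an effect inside the atrium and an effect from elsewhere in the embryo cannot be told apart. With 1 array per genotype there was no replicate, and no error, interval or p could be given for any difference. In such bulk samples, fewer cells of a type and less RNA per cell cannot be told apart.

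Most genes of this naming series encode proteins with a row of C2H2 zinc fingers, each finger a short loop held by a zinc ion that reads a few bases of DNA. Many carry a KRAB domain in front of the fingers, through which they recruit the corepressor Trim28 and the histone methyltransferase Setdb1 and so place repressive chromatin, often on retroelements. The genes arose by repeated duplication, lie side by side in clusters and change quickly between species and between mouse strains. The numbers are names and say nothing of function.

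The targeted gene Shox2 had a log2 value of 8.43 in the wildtype pool and 7.48 in the Shox2-/- pool, a difference of −0.95. Markers of atrial myocardium were high on both arrays, with Myl7 at 12.75 and 12.80. None of 8 passed the size thresholds of the study, which were 0.35 upward and −0.4 downward on the log2 scale. The study used these together with a limit on P, which was not applied here. A gene past a threshold here is therefore not always one that the study called. Liver plasma protein genes and erythroid genes were lower on the Shox2-/- array, 8 of 8 and 8 of 8 at or below −0.4, with median differences of −0.97 and −0.49. Their part in the Zfp differences was not tested. Of 8 sinus venosus and sinoatrial node genes, 5 were above 0 and the median difference was 0.04. The 2 at or below −0.4 were Shox2 and Isl1. None of 6 endothelial genes and none of 6 germ cell and early embryo genes was at or below −0.4. Dppa3 of the last list was higher, with a difference of 0.55. Xist, which is expressed from the inactive X chromosome of females, was at 10.13 in wildtype and 6.60 in Shox2-/-, the latter below the receptor level given next. The sex of the pooled embryos and their genotype cannot be told apart in any difference given here. As a gauge of background, 1269 receptor genes of the olfactory and vomeronasal families were used, and the level that 95% of them did not exceed was 6.78 in the wildtype pool and 6.97 in the Shox2-/- pool. These values are called the receptor level of each array. The value of Shox2 on the Shox2-/- array, 7.48, was above that level. What this remaining signal measured was not tested.

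The 103 Zfp genes lay in the middle of the range of the array. Their median log2 value was 7.51 in the wildtype pool and 7.34 in the Shox2-/- pool, where the median of all genes was 7.49 and 7.50. Of these, 83 were above the receptor level in the wildtype pool and 69 in the Shox2-/- pool. On both arrays 68 were above it, and 19 were above it on neither. A further 15 were above it on the wildtype array alone and 1 on the Shox2-/- array alone, where the receptor level itself was the higher of the pair. Of all 21225 genes, 14033 were above it on both arrays and 6213 on neither. Another 857 were above it on the wildtype array alone and 122 on the Shox2-/- array alone. All but 1 of the members were annotated as protein coding, the exception being Zfp783, a long noncoding RNA gene.

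The lowest log2 difference among the members was −1.05, and 14 of 103 (13.6%) were at or below −0.4, beside 1.78% of all genes. At or above 0.35 there was 1 member (0.971%), beside 1.13% of all genes. Below 0 there were 75 members (72.8%), beside 45.1% of all genes, and the median difference was −0.13 for the members and 0.02 for all genes. Low values tended to be higher on the Shox2-/- array, as in the receptor genes, with a median difference of 0.12. When the trend of the difference with level was removed, 14 members were again at or below −0.4, beside 1.5% of all genes, and 1 was at or above 0.35, beside 0.952%. Of these 14 members, 12 were the same genes, with Zfp930 and Zfp946 passing only before removal and Zfp882 and Zfp952 only after.

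**Figure D1:**
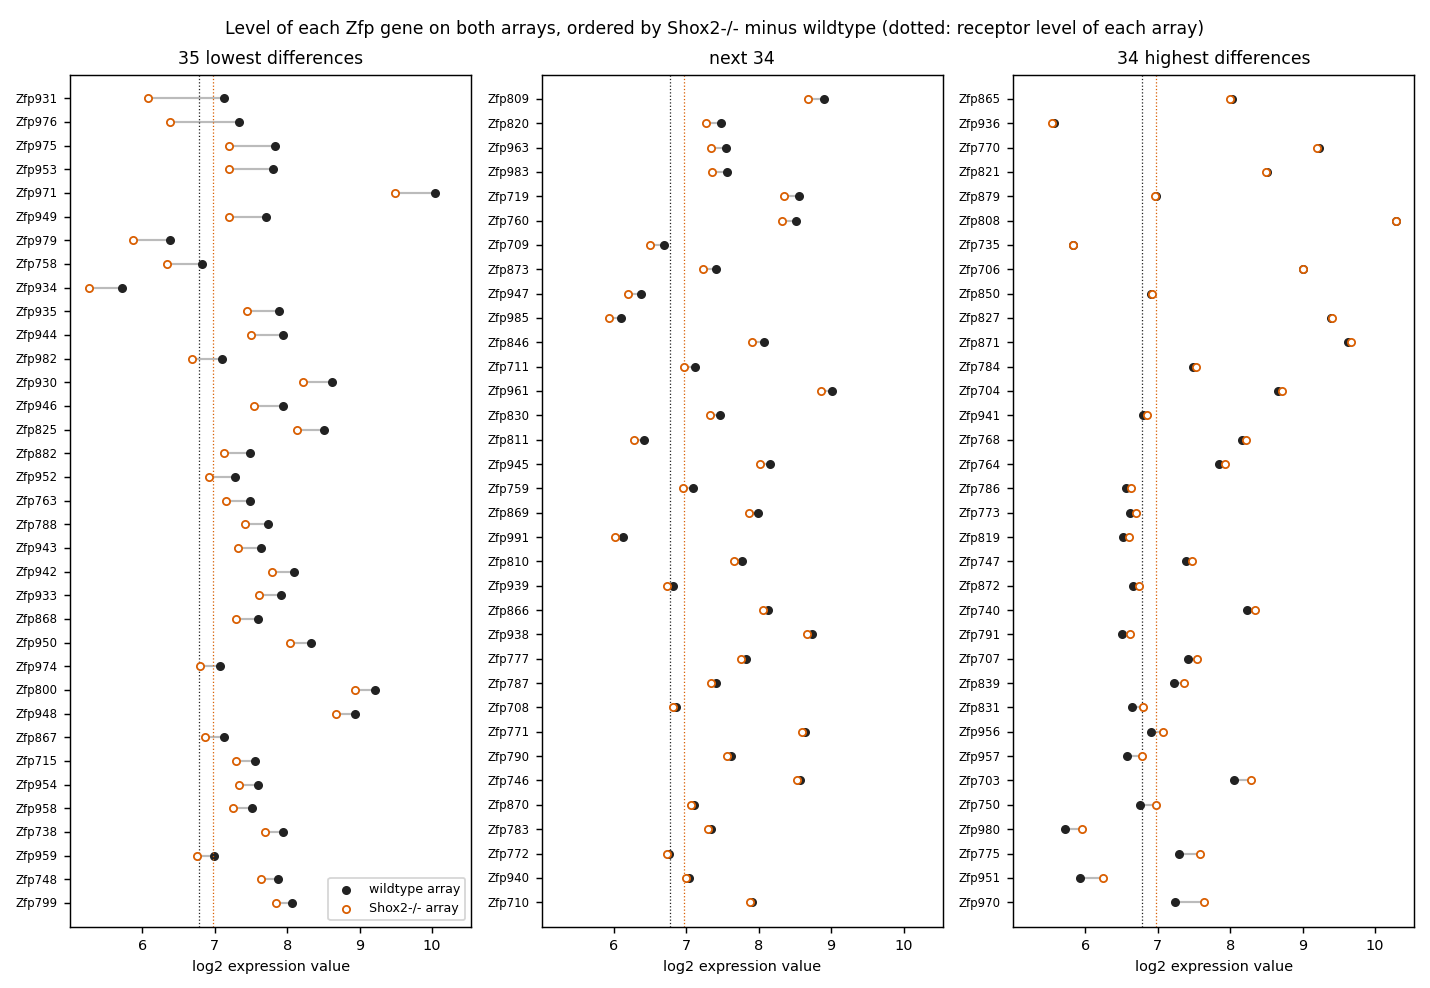
Log2 expression value of each of the 103 Zfp genes on the wildtype array (filled) and the Shox2-/- array (open), ordered from the lowest to the highest Shox2-/- minus wildtype difference in 3 panels. Dotted lines mark the receptor level of each array, 6.78 and 6.97, and the gap is widest for Zfp931 and Zfp976 at the top of the first panel.

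Zfp931 (Entrez 353208) stood at 7.13 in the wildtype pool and 6.08 in the Shox2-/- pool. Its difference of −1.05 was the lowest of the group and the 12th lowest of all genes, and the Shox2-/- signal was 48.4% of the wildtype signal. Zfp976 (Entrez 208111) stood at 7.33 and 6.38, a difference of −0.95 that was close to that of Shox2 itself. Both genes exceeded the receptor level in wildtype and lay below it in Shox2-/-, so their lower values lie within the range of background signal. Zfp975 (Entrez 434179) stood at 7.83 and 7.20, a difference of −0.62, and is the next member after Zfp976 on chromosome 7. Zfp971 (Entrez 626848), also named Etohi1, was well above background with 10.04 and 9.49, a difference of −0.54. It was the second highest of all members on the wildtype array after Zfp808. Zfp970 (Entrez 628308) was the only member past the upper threshold, with 7.24 in the wildtype pool and 7.64 in the Shox2-/- pool, a difference of 0.40. Zfp970, Zfp971 and Zfp931 come in this order on chromosome 2, with at most 5 protein-coding genes between one and the next. The members with the highest and the lowest difference thus lay in the same stretch of the annotation.

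Promoters of these 5 genes are shown because they are the members past a threshold in 2 runs of neighbouring copies, with Zfp970 and Zfp931 at the opposite ends of the differences. They were picked after the values were seen. The longest stretch that all 5 have in common is GACCTGCCAGTCAGAA, with 16 bases. The windows run from 250 bases before to 50 bases after the RefSeq transcription start in GRCm38.p6, 5′ to 3′ along the gene, and capitals mark the shared stretch. Their coordinates are chr2:178078376-178078675 on the minus strand for Zfp931, chr2:178023034-178023333 on the plus strand for Zfp971, chr2:177464492-177464791 on the plus strand for Zfp970, chr7:42642555-42642854 on the minus strand for Zfp976 and chr7:42692669-42692968 on the minus strand for Zfp975.
Zfp931: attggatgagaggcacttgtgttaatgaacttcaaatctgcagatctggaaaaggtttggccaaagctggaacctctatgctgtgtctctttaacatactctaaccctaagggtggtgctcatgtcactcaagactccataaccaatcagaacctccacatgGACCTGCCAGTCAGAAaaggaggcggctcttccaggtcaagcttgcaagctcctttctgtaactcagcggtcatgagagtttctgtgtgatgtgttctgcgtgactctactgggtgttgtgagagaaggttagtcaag
Zfp971: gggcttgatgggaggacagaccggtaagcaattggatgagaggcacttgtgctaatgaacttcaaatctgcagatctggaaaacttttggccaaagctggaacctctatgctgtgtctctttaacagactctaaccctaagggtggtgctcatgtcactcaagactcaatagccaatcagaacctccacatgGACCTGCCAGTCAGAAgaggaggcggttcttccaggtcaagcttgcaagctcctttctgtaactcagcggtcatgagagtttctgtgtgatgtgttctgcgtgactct
Zfp970: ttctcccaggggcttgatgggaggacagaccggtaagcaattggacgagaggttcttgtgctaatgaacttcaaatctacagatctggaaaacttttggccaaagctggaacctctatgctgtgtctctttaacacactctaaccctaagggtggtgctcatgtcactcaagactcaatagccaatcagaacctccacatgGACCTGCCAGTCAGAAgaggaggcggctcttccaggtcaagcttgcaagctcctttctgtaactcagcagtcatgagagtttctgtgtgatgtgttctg
Zfp976: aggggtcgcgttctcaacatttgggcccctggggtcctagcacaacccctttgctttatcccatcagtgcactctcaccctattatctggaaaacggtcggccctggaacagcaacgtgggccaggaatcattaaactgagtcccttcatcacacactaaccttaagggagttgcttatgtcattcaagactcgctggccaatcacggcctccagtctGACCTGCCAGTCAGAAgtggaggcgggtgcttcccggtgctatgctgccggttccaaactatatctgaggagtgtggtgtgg
Zfp975: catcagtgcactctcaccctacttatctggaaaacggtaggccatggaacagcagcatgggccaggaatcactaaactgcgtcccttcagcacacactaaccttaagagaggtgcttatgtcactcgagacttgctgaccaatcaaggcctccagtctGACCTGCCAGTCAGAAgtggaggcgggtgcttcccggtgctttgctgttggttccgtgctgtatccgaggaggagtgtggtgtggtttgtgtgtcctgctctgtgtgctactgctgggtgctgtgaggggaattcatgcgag

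On either strand it was present in the promoters of 6 of the 91 members with a RefSeq promoter (6.59%), and in 37 of all 27025 genes with one (0.137%). The sixth member was Zfp950 on chromosome 19, with 8.33 in the wildtype pool and 8.03 in the Shox2-/- pool, a difference of −0.29. As the stretch was taken from 5 genes picked for passing a threshold, its presence in genes past a threshold is fixed by that choice, and Zfp950, which passed none, was the only member it added. Of the 12 members at or below −0.4 with a promoter, 8 lacked the stretch, Zfp953 among them. No other named gene of the arrays held the stretch in its promoter. The genes arose from one another by duplication, so they are not independent copies of the sequence.

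Similar promoters went with unlike as well as like differences. The promoters of Zfp970 and Zfp971 were 91.9% identical, and the differences of these genes were 0.40 and −0.54. Those of Zfp976 and Zfp936 were 82.4% identical, with differences of −0.95 and −0.02, where Zfp936 was below the receptor level on both arrays. Other close pairs lay nearer to each other, as Zfp943 and Zfp758 with 94.8% identity and differences of −0.31 and −0.49, or Zfp747 and Zfp764 with 86.3% identity and differences of 0.09 and 0.07. Among 120 pairs of promoters of the same run of neighbours, the median identity was 48.6%, and 8 pairs reached 80%. Probe sequences were not used here, and how far a probe set of one gene also measured the transcripts of a near copy was not tested.

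Short motifs were counted in the same windows on both strands. AATT, the core of the palindromic homeodomain motif TAATTA, was in the promoters of 59.3% of the members and 54.1% of all genes. TAATTA itself was in 17 members (18.7%) and in 6.12% of all genes. The 17 members with TAATTA had a median difference of −0.31, with 5 at or below −0.4, namely Zfp979, Zfp758, Zfp944, Zfp982 and Zfp946. The 74 members without it had a median of −0.13, with 7 at or below −0.4, among them the 6 most lowered members, from Zfp931 to Zfp949. Below 0 there were 76.5% of the members with TAATTA and 75.7% of those without. The box CCAAT was in 63.7% of the members and 41.1% of all genes, the GC box GGGCGG in 45.1% and 38.2%, TTCCGG in 29.7% and 16.7%, and TATAAA in 7.69% and 15.7%. The median GC content of the windows was 53.0% for the members and 52.7% for all genes. A match of letters is not a binding site, and members of a cluster share their motifs through duplication.

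**Figure D2:**
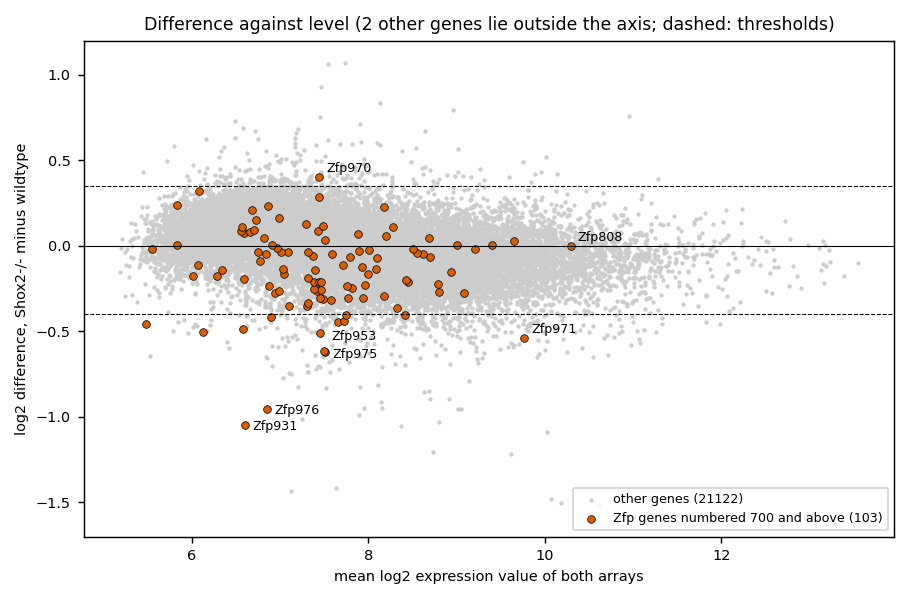
Shox2-/- minus wildtype log2 difference (vertical) against the mean log2 value of both arrays (horizontal) for the 103 Zfp genes (orange) and 21122 other genes (grey), with dashed lines at 0.35 and −0.4. The Zfp genes at or below −0.4 lie at low, middle and high levels, from Zfp934 to Zfp971.

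The lower values were found at every level of signal. Among 45 members whose mean value was above the median of all genes, 7 (15.6%) were at or below −0.4, beside 2.80% of the 10612 genes at that level, and 36 (80.0%) were below 0, beside 66.5%. Between the receptor level and the median, 2 of 31 members (6.45%) were at or below −0.4, beside 1.34% of all genes there. Under the receptor level, 5 of 27 members (18.5%) were at or below −0.4, beside 0.425% of all genes there. This class was set by the mean of both arrays, and 7 of its members, Zfp931 and Zfp976 among them, exceeded the receptor level in wildtype alone, 1 in Shox2-/- alone and 19 on neither array.

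The 10 other members at or below −0.4 had differences between −0.61 and −0.40. Zfp953 stood at 7.81 in the wildtype pool and 7.20 in the Shox2-/- pool, a difference of −0.61. Zfp949 on chromosome 9 stood at 7.71 and 7.20, a difference of −0.51, and was the only one of the 14 with no other member nearby. Zfp979, also named Ssm1b and known as a strain-specific modifier of the methylation of a transgene, was at 6.38 and 5.87, below the receptor level on both arrays, a difference of −0.51. Zfp758 was at 6.83 and 6.34, a difference of −0.49, and its Shox2-/- value was below the receptor level. Zfp934 was at 5.71 and 5.26, a difference of −0.46, and lay below the receptor level on both arrays, so this difference is between values within background. Its neighbour Zfp935 was above the receptor level on both, at 7.88 and 7.44, a difference of −0.45. Zfp944 was at 7.94 and 7.50, a difference of −0.44. Zfp982 was at 7.10 and 6.69, a difference of −0.41, and its Shox2-/- value was below the receptor level. Closest to the threshold on the inside were Zfp930, at 8.62 and 8.22 with a difference of −0.41, and Zfp946, at 7.94 and 7.54 with a difference of −0.40. In all, 8 of the 14 genes were above the receptor level on both arrays, 4 on the wildtype array alone and 2 on neither.

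The differences were gathered in the highest numbers. Of 40 members in the 900s, 13 (32.5%) were at or below −0.4, 34 (85.0%) were below 0 and the median difference was −0.26. Of 26 members in the 800s, none was at or below −0.4, 19 were below 0 and the median was −0.09. Of 37 members in the 700s, 1 was at or below −0.4, which was Zfp758, 22 were below 0 and the median was −0.04. Of 221 Zfp genes with a number under 700, 4 (1.81%) were at or below −0.4, none was at or above 0.35, 136 (61.5%) were below 0 and the median was −0.06. Those 4 genes were Zfp51 with −0.55, Zfp455 with −0.48, Zfp62 with −0.46 and Zfp229 with −0.43. The share of all genes at or below −0.4 was 1.78%. With the trend removed, 12 members in the 900s, 1 in the 800s and 1 in the 700s were at or below −0.4. Under 700 there were then 7 (3.17%), beside 1.5% of all genes. The limit at 700 did not mark a step in the values. Just under it, Zfp691, Zfp692 and Zfp697 had differences of 0.07, −0.08 and 0.17, and just over it Zfp703, Zfp704 and Zfp706 had differences of 0.23, 0.05 and 0.00.

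**Figure D3:**
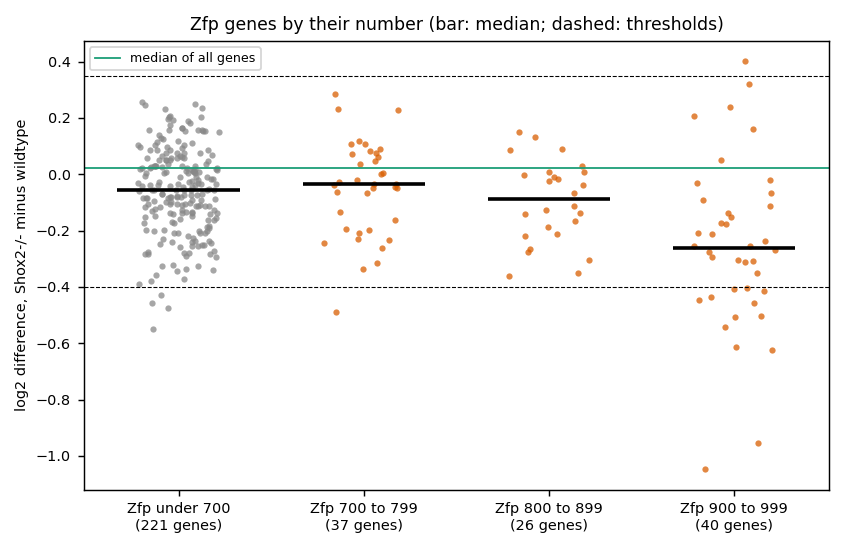
Shox2-/- minus wildtype log2 difference of each Zfp gene (points) by the number in its symbol, with the median of each class (black bar), the median of all genes (green line) and the thresholds of 0.35 and −0.4 (dashed). The medians were −0.06, −0.04, −0.09 and −0.26 from left to right, and most points below −0.4 belong to the 900s.

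Position in the genome divided the members further. Members with at most 5 protein-coding genes between them in the annotation of GRCm38.p6 were joined to runs, which gave 13 runs of at least 3 members with 58 members in all, 6 runs of 2 and 33 members with no other nearby. In the 13 runs, 13 of 58 members (22.4%) were at or below −0.4, 49 (84.5%) were below 0 and the median difference was −0.20. In the runs of 2, none of 12 was at or below −0.4 and the median was −0.06. Among the 33 lone members, 1 was at or below −0.4, 17 were below 0 and the median was −0.01. Number and position went together, as 28 of the 40 members in the 900s lay in the 13 runs. Of those 28, 12 (42.9%) were at or below −0.4 with a median of −0.31, while of the 12 members in the 900s outside the runs 1 was at or below −0.4, with a median of −0.08. The 18 members in the 700s that lay in the runs had a median of −0.05, and the 12 in the 800s had −0.12.

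The longest run held 11 members on chromosome 17, and every one of them was lower on the Shox2-/- array. Their differences ranged from −0.49 for Zfp758 to −0.14 for Zfp945, with a median of −0.27, and Zfp758, Zfp944 and Zfp946 were at or below −0.4. The other 8 were Zfp948 with −0.27, Zfp983 with −0.21, Zfp760 with −0.20, Zfp820 with −0.21, Zfp942 with −0.31, Zfp943 with −0.31, Zfp947 with −0.18 and Zfp945. Zfp229, which lies inside this run and has a lower number, had a difference of −0.43. All genes of chromosome 17 had a median difference of 0.03, and 43.0% of them were below 0. A second run on that chromosome, with 6 members, had a median of −0.18. It went from Zfp952 with −0.35 and Zfp763 with −0.34 over Zfp799 with −0.23, Zfp811 with −0.14 and Zfp870 with −0.04 to Zfp871 with 0.03, the last of these at the high values of 9.63 and 9.66.

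In the smaller runs given next, every member was below 0, but the size of the difference varied. On chromosome 7, the run with Zfp976 and Zfp975 went on with Zfp936 at −0.02 and Zfp715 at −0.26. On chromosome 4, all 5 members of a run were below 0, with Zfp979 at −0.51, Zfp982 at −0.41, Zfp933 at −0.30, Zfp985 at −0.17 and Zfp991 at −0.11. Of these 5, only Zfp933 was above the receptor level on both arrays. Zfp979, Zfp985 and Zfp991 were below it on both, so their differences are between values within background. On chromosome 8, all 5 members of a run were below 0 as well, from Zfp930 at −0.41 over Zfp868 at −0.30, Zfp963 at −0.21 and Zfp869 at −0.13 to Zfp866 at −0.07. All 9 members on chromosome 13 were below 0, beside 53.4% of all genes of that chromosome. At or below −0.4 there were 3 of the 9, beside 3.29% of all genes there. The members include Zfp953, whose neighbours Zfp759 and Zfp708 had differences of −0.13 and −0.05. Also among them is the pair Zfp934 and Zfp935, whose neighbour Zfp808 was the same on both arrays to 2 decimals, at 10.29. Zfp808 was the member with the highest value on either array. Of the 13 runs, 7 had all members below 0 and 7 held a member at or below −0.4.

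Runs without such a difference were also seen. On chromosome 7, Zfp771, Zfp768, Zfp747 and Zfp764 had differences of −0.05, 0.06, 0.09 and 0.07. On chromosome 6, Zfp786, Zfp783, Zfp956, Zfp777 and Zfp746 had differences between −0.07 and 0.16. Within the 13 runs, 22 measured genes were not members. Of these, 18 were below 0 and 3 were at or below −0.4, with a median of −0.20. Of all genes, 45.1% were below 0 and 1.78% were at or below −0.4. These included 12 Zfp genes of lower number with a median of −0.22, 8 genes of other names with −0.14 and 2 vomeronasal receptor genes with −0.09. The 8 genes of other names ranged from −0.52 for Gm10033 to 0.20 for Cyp4f14, with 6 of them below 0.

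**Figure D4:**
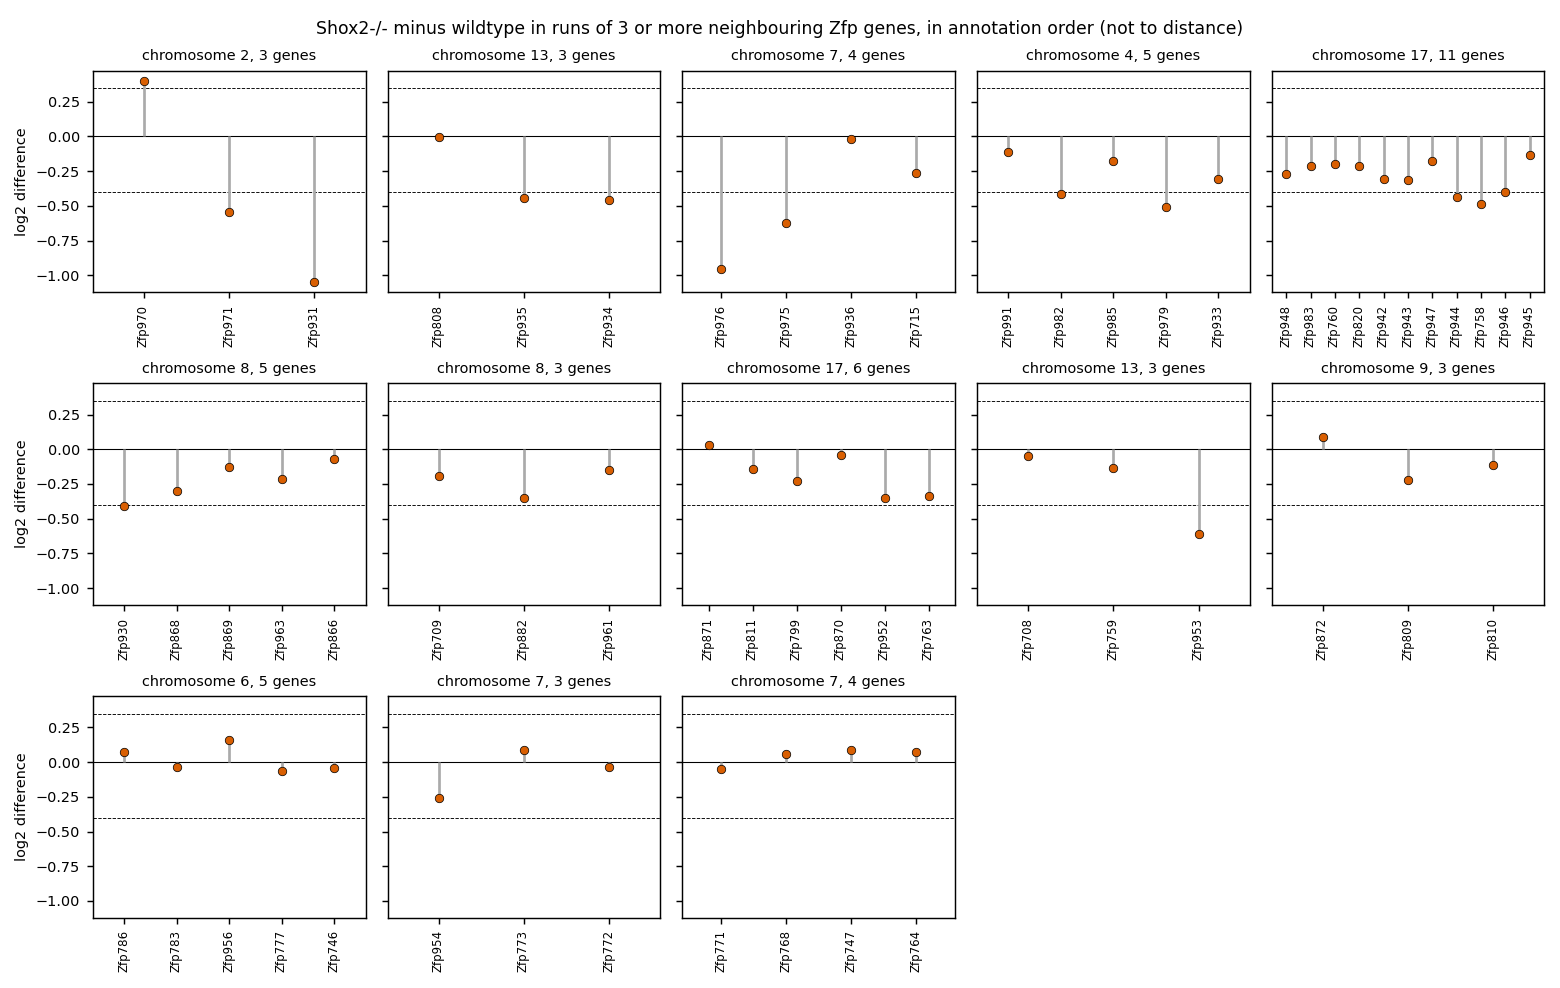
Shox2-/- minus wildtype log2 difference of the 58 Zfp genes in the 13 runs of at least 3 neighbours, 1 panel per run, in annotation order without distances, with dashed lines at 0.35 and −0.4. All 11 genes of the chromosome 17 run lie below 0, while the chromosome 2 run spans Zfp970 at 0.40 and Zfp931 at −1.05.

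A list of members with a textbook role was looked up as well. Zfp809, which silences murine leukaemia proviruses and related endogenous retroviruses through their primer binding site, stood at 8.90 in the wildtype pool and 8.68 in the Shox2-/- pool, a difference of −0.22. Zfp708, a member of the regulator of sex-limitation candidate genes that binds a class of retroelements, had 6.86 and 6.81. Zfp746, also named Paris, a repressor of the gene for PGC-1alpha, had 8.57 and 8.53. Zfp711, an X-linked gene whose human counterpart is mutated in intellectual disability, had 7.13 and 6.96. Zfp830, needed in the early embryo, had 7.46 and 7.32. Zfp703, a corepressor without the long row of fingers, had 8.06 and 8.29, and Zfp750, a regulator of epidermal differentiation, had 6.75 and 6.98, near the receptor level. None of these 7 was past a threshold. Zfp775 with 7.30 and 7.58 and Zfp956 with 6.91 and 7.07 had differences of 0.29 and 0.16 and were, with Zfp970, Zfp750 and Zfp703, the 5 highest among members with a value above the receptor level.

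Among the 8 most abundant members, Zfp971 was the only one past a threshold. After Zfp808 and Zfp971 came Zfp871, then Zfp827 with 9.40 in the wildtype pool and 9.41 in the Shox2-/- pool and Zfp770 with 9.22 and 9.20. Zfp800 had 9.22 and 8.94, a difference of −0.28, and Zfp961 had 9.02 and 8.86. Zfp706, which encodes a small zinc finger protein that promotes the exit of mouse embryonic stem cells from self-renewal, had 9.01 on both arrays. Values of different genes come from different probes, and their order is that of signal and not of transcript number.

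The corepressors through which KRAB zinc finger proteins act were above the receptor level on both arrays. Of 37 genes on a list of corepressors and heterochromatin factors, 31 were named among the probe sets, and none was past a threshold. Of these 31, 23 (74.2%) were below 0 and the median difference was −0.10, beside 66.5% and −0.07 for all genes with a mean value above the median. With the trend removed, 17 of the 31 were below 0 and their median was −0.01. Trim28 stood at 10.49 in the wildtype pool and 10.46 in the Shox2-/- pool. Setdb1 stood at 8.98 and 8.87. The lowest difference was that of Morc3, a factor of retroelement silencing, with 8.93 and 8.65, a difference of −0.28.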

How the data were processed

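RNA of right atria was measured on GeneChip Mouse Gene 1.0 ST arrays. The deposited values are log2 expression values, 1 per Entrez gene and array, for which the authors log transformed and quantile normalized perfect-match probes and used log-linear models of JMP Genomics 4.0, with probes grouped by a custom CDF (version 14). The log base was taken from the range of the values, 5.09 to 13.59. The background correction was not given in the sources used here, nor was the genome build. Symbols came from the platform table, updated through Entrez identifiers with RefSeq (GRCm38.p6), and 986 probe sets without a symbol were counted but not named. The Shox2-/- minus wildtype difference was computed with Python 3.11.15, pandas 2.3.3 and numpy 2.4.6. The trend with level was removed by lowess (statsmodels 0.14.6, span 0.3, 3 iterations), and scripts were tested on simulated data. The number of arrays, 1 per genotype, limits the precision. Genes were counted at the size thresholds of the study, 0.35 and −0.4. Its P needs probe values and was not computed.

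Members and gene lists were chosen with earlier results of these data known. The 50 members named by rule were those past a threshold, the 8 highest, the 5 most lowered and 5 most raised with a value above the receptor level, those with a textbook role, those nearest to number 700 and those in runs of at least 3 that hold a gene past a threshold. Others were named after their values were seen. Promoters came from RefSeq and were compared with biopython 1.88. Protein features were planned and not run, as protein sequences were not used here. Alternatives were centring, trend removal, level filters, other thresholds, other receptor percentiles, other gaps and platform symbols.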

Additional observations from a re-analysis of the deposited data

How the results depend on the processing

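No paired analysis was possible because there was 1 array per genotype. Leaving out a replicate was not possible for the same reason. The median difference of the members, −0.13, became −0.14 with array medians centred (−0.139) and −0.14 with the trend removed (−0.14). It was −0.16 in the 76 members whose mean of both arrays was above the receptor level of that mean, 6.89. In the 45 above the median of all genes it was −0.14 (−0.137). The count at or below −0.4, which was 14, became 9 in the 76 members, 7 above the median and 1 (Zfp931) at a 2-fold limit. Among the 9 was Zfp982, whose Shox2-/- value was below the receptor level of that array. The count at or above 0.35, which was 1, became 0 above the median and 0 at the 2-fold limit. The count below 0, which was 75, became 36 above the median, where fewer members entered. With the trend removed, Zfp930 (−0.34) and Zfp946 (−0.39) no longer passed −0.4, and the other 48 named members stayed on their side of the thresholds. Of these, 3 near 0 changed sign, Zfp746 from −0.04 to 0.03, Zfp770 from −0.02 to 0.07 and Zfp808 from −0.00 to 0.08. Between 47 and 79 members were above the receptor level on both arrays when it was set at the 99th or 90th percentile, and 68 at the 95th. Runs of at least 3 numbered 10 with at most 2 genes between members and 13 with at most 10. Platform symbols gave the same 103 members. Signal near the receptor level limits what can be said of the 27 members whose mean of both arrays was not above it. By the level of each array, 15 members were above it on the wildtype array alone, 1 on the Shox2-/- array alone and 19 on neither. The same limit holds for these.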

Other observations

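Genes that are not members but lie inside the runs of neighbouring Zfp genes had the following values. On chromosome 13, in the run with Zfp953, Rsl1, the regulator of sex-limited protein expression in the liver, stood at 7.71 in the wildtype pool and 7.40 in the Shox2-/- pool, a difference of −0.31. In the same run, Zfp455 had 6.25 and 5.78, below the receptor level on both arrays, and Zfp595 had 7.43 and 7.14, a difference of −0.28. On chromosome 8, Gm10033 and D130040H23Rik, in the run with Zfp930, had differences of −0.52 and −0.22. Genes of other families inside runs had differences in both directions, from −0.21 for Sephs2, a selenophosphate synthetase gene, over −0.16 for Vmn2r112, −0.08 for Cyp4f13, −0.02 for Dctpp1 and Vmn2r111 and 0.03 for Itgal to 0.20 for Cyp4f14, a cytochrome P450 gene. These genes were named after their values were seen.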
